A study of Mus musculus with 25 samples.

Results

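The hairpin precursor of miR-122, the most abundant microRNA (miRNA) of hepatocytes, gives a pair of mature strands, listed as mmu-miR-122-5p and mmu-miR-122-3p and called miR-122-5p and miR-122-3p here. Both were chosen by name, as 2 of 1493 entries in a table of counts from mouse liver small extracellular vesicles (sEVs), which are particles with a membrane that cells shed. The donors were C57BL/6J mice of wild-type genotype in 5 age groups: 1 week, 6 weeks, 6 months, 12 months and 14 months. Each group had 5 mice with 1 library per mouse, which made 25 libraries. The labels state that mice of both sexes were used in equal number but do not give the sex of each mouse. With 5 mice in each group, the sexes could not be equal in number within any age. Frozen liver was opened with a Miltenyi tumor dissociation kit before ultracentrifugation, so vesicles of every liver cell type and from blood left in the tissue could be present. Because the batch label only restates the age, effects of handling and of age cannot be told apart.

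A miRNA hairpin is cut by Drosha and Dicer into a short duplex. As a rule one strand, the guide, is loaded into an Argonaute protein and directs it to messenger RNAs that pair with the seed, while the other, the passenger, is mostly lost. For miR-122 the 5p arm is the guide. It is made mainly in hepatocytes, helps to keep their adult gene program and acts on cholesterol and fatty acid metabolism, and it is found in vesicles and in plasma.

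The miR-122 sequences are not printed here. Another 4 hairpins of the hepatocyte list, whose arms are set beside those of miR-122 below, are shown to make clear which strand is which. All sequences are from RefSeq on GRCm38.p6, run 5′ to 3′, and have the seed (bases 2 to 8) in capitals. The arm with more counts comes first in each pair.
miR-192-5p: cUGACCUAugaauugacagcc
miR-192-3p: cUGCCAAUuccauaggucacag
miR-802-5p: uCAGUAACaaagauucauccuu
miR-802-3p: aCGGAGAGucuuugucacucag
miR-148a-3p: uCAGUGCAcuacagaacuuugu
miR-148a-5p: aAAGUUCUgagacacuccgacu
miR-22-3p: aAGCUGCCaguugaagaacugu
miR-22-5p: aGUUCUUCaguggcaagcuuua
The seeds of the paired arms differ in all 4 hairpins, so a shift between arms is a shift between strands with different predicted pairing. miR-192 is induced by hepatocyte and intestinal transcription factors, miR-802 is linked to hepatic insulin sensitivity, and miR-148a acts on lipoprotein receptor expression.

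Library totals ran from 641579 to 6888928 counts. They were 641579 to 1738208 at 6 weeks, below all 1-week totals (2095925 to 6888928). Of the 1493 entries, 391 had enough counts to be tested, both miR-122 arms among them. Most summed shares of other cells' markers were lower at 6 weeks. They were, at 6 weeks against 1 week, 0.459 to 0.645% against 1.42 to 1.62% for 8 leukocyte entries, and 0.0364 to 0.0486% against 0.140 to 0.212% for 6 biliary and other epithelial entries. Those of the 5 muscle entries in the table were 0.000198 to 0.000792% against 0.00786 to 0.173%, with miR-133b-3p at 0 in every 6-week library. The 5 erythroid entries held 0.0156 to 0.0507% against 0.0475 to 0.132%, which overlap slightly. The sums of 2 endothelial entries (4.65 to 5.47% against 3.25 to 6.11%) and of 9 stellate and smooth muscle entries (0.617 to 0.803% against 0.625 to 1.04%) overlapped. The part of these cells in the results below was not tested, and in such bulk samples fewer vesicles of a type and less RNA per vesicle cannot be told apart.

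The gene Mir122 lies at chr18:65248861-65248926 on the plus strand of mm10 (GRCm38), inside exon 2 of the long intergenic noncoding RNA gene AC157910.3 in GENCODE M21, and it is not in a coding exon or a UTR. RefSeq places a second miRNA gene, Mir122b, at chr18:65248863-65248921, within the same interval. Its 5p entry held 154 counts over all libraries, or 0.942% as many as miR-122-3p, with at most 19 in a library, and its 3p entry held 2. Whether counting used strand is not given in the sources used here, so reads of miR-122-3p and of this overlapping gene could be partly exchanged, to an extent that was not tested.

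miR-122-5p was the most abundant entry in all 25 libraries. At 1 week it held 60.8, 64.3, 60.5, 67.5 and 56.1% of all counts in mice 1, 3, 4, 5 and 27. At 6 weeks its shares were 59.5, 61.3, 59.0, 58.4 and 53.9% in mice 6 to 10, and at 6 months 59.0, 57.4, 55.8, 57.2 and 54.4% in mice 11 to 15. This one strand made up the larger part of all counts in each of these libraries. At 12 months it held 56.6, 57.6, 54.0, 55.7 and 55.9% in mice 16 to 20, and at 14 months 57.7, 62.0, 55.6, 59.7 and 57.1% in mice 21 to 25. The lowest share of all was in a 6-week mouse and the highest in a 1-week mouse, and all neighbouring ages overlapped. The second entry was miR-148a-3p in all 25 libraries, and miR-122-5p had 6.91 to 13.5 times as many counts as it.

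Averaged by age, the 5p share was 61.8 ± 4.29, 58.4 ± 2.75, 56.8 ± 1.73, 56.0 ± 1.31 and 58.4 ± 2.49% from 1 week to 14 months (SD, n = 5 each). None of the 5 planned comparisons passed an exact two-sided permutation test, with Benjamini-Hochberg adjusted p from 0.437 to 0.968. With 5 libraries against 5 the smallest p this test can give is 0.00794. In comparisons added afterwards, the share was lower at 12 months than at 1 week, by a difference of -5.87 percentage points (p = 0.0238, adjusted p = 0.0794, exact permutation test). At 6 months the difference from 1 week was -5.07 points (p = 0.0317, adjusted p = 0.0794, exact permutation test), and neither comparison passed.

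**Figure D1:**
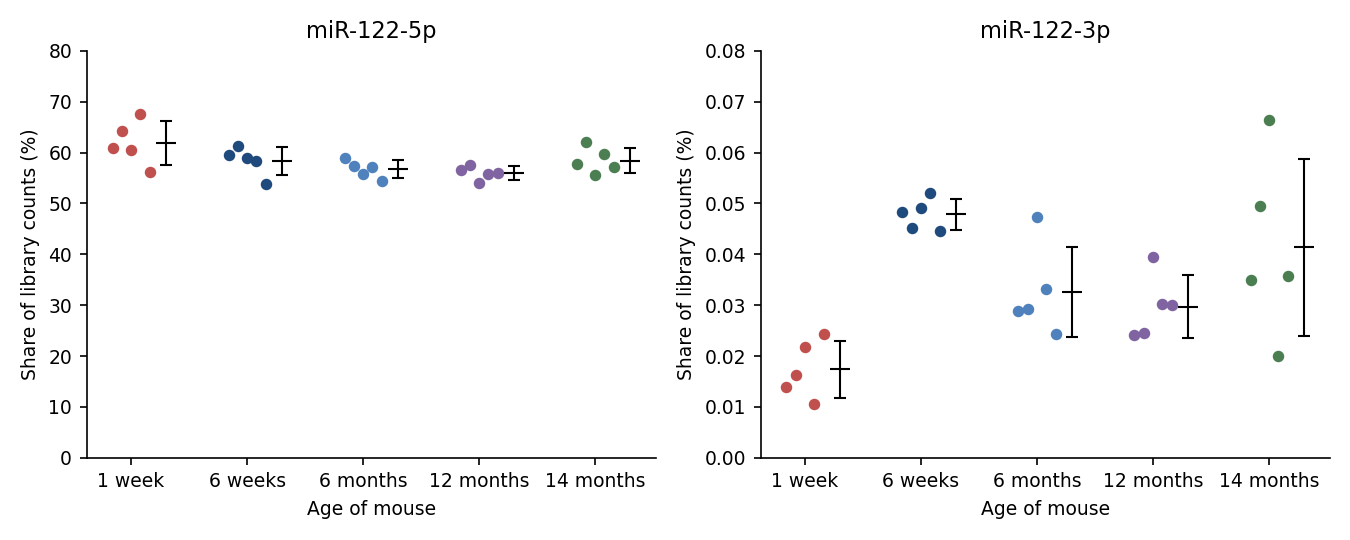
Share of all counts (%) held by miR-122-5p and by miR-122-3p at each age, 1 point per library (5 per age), with a horizontal line for the mean and a whisker for the SD beside the points. The 5p shares of neighbouring ages overlap, whereas all 6-week 3p shares (0.0446 to 0.0521%) lie above all 1-week 3p shares (0.0107 to 0.0243%).

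The passenger strand was rare at every age, and its share was higher at 6 weeks than at 1 week. At 1 week miR-122-3p had 362, 340, 571, 270 and 1671 counts in mice 1, 3, 4, 5 and 27, or 0.0139, 0.0162, 0.0218, 0.0107 and 0.0243% of all counts. At 6 weeks it had 366, 290, 497, 565 and 775 counts in mice 6 to 10, or 0.0483, 0.0452, 0.0491, 0.0521 and 0.0446%. No 6-week library overlapped a 1-week one, and how many other entries separate these ages was not counted. At 6 months the counts were 363, 330, 498, 823 and 277 in mice 11 to 15, or 0.0288, 0.0292, 0.0473, 0.0331 and 0.0243%. At 12 months they were 203, 331, 970, 748 and 1134 in mice 16 to 20, or 0.0242, 0.0245, 0.0394, 0.0303 and 0.0300%. The 12-month shares lay below all 6-week shares, and the 6-month shares were below them in 4 of 5 mice, mouse 13 being within their range. At 14 months the counts were 539, 796, 1663, 531 and 1428 in mice 21 to 25, or 0.0349, 0.0496, 0.0664, 0.0201 and 0.0358%. The 14-month mice were the most scattered, with mouse 24 inside the 1-week range and mouse 23 above every other library of the study. Counting error was smaller than that scatter: the 95% Wilson interval of a 3p share reached 4.80 to 13.8% of its value to either side, and such intervals cover counting error only.

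The mean 3p share was 0.0174 ± 0.00560, 0.0479 ± 0.00306, 0.0325 ± 0.00883, 0.0297 ± 0.00618 and 0.0414 ± 0.0174% from 1 week to 14 months (SD, n = 5 each). It was 2.76-fold higher at 6 weeks than at 1 week, a difference of 0.0305 percentage points (adjusted p = 0.0397, exact two-sided permutation test, higher in 5 of 5 mice than in any 1-week mouse). The difference at 6 months from 6 weeks was -0.0153 percentage points, which did not pass (p = 0.0238, adjusted p = 0.0595, exact permutation test). With miR-122-5p left out of the denominator that difference passed (adjusted p = 0.0397, exact permutation test). The comparison of 12 months with 6 weeks, added afterwards, passed with the lower share at 12 months (adjusted p = 0.0198, exact permutation test). The added comparisons of 6, 12 and 14 months with 1 week all passed with higher shares in the older mice (adjusted p from 0.0198 to 0.0298, exact permutation tests). By abundance, miR-122-3p ranked 106 to 126 among all entries at 1 week and 49 to 79 in the 20 older libraries.

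Levels scaled between libraries were then compared, in counts per 1000000 (CPM) with TMM factors, which scale libraries on the assumption that most entries do not differ. From the youngest age to the oldest, miR-122-3p averaged 112 ± 37.2, 485 ± 20.1, 359 ± 74.5, 338 ± 86.2 and 491 ± 166 CPM (SD, n = 5 each). Ordered by level, 1 week was lowest, followed by 12 months, 6 months, 6 weeks and 14 months. Only the step between 1 week and 12 months passed the test among neighbours in this order. edgeR's quasi-likelihood test gave a log2 fold change of 2.11 ± 0.24 (SE) for miR-122-3p at 6 weeks over 1 week, a 4.33-fold higher level, with a Benjamini-Hochberg adjusted p of 2.72e-08. In that comparison edgeR called 71.9% of the 391 tested entries, 35% higher and 36.8% lower, so a call as such was common. The rise was 1.36 to 2.55 on the log2 scale under 7 other scalings, filters and models and passed in all of them. With the log2 library total as a covariate it was 2.55, but the totals of these ages did not overlap, so depth and age cannot be told apart. The later ages against 1 week, added afterwards, gave 1.68 at 6 months, 1.59 at 12 months and 2.13 at 14 months, all past the threshold, where edgeR called 74.7, 71.6 and 72.9% of entries.

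The result for the guide strand depended on the scaling. On the same scale miR-122-5p averaged 402281 ± 68351, 592905 ± 39377, 637212 ± 95894, 632859 ± 69955 and 717142 ± 90215 CPM from 1 week to 14 months (SD, n = 5 each). edgeR gave 0.56 ± 0.12 (SE) on the log2 scale at 6 weeks over 1 week (adjusted p = 0.000196). The TMM factors were 0.947 to 1.04 at 6 weeks and 1.30 to 1.78 at 1 week. The log2 fold change was 0.10 with DESeq2 size factors (adjusted p = 0.399, edgeR), 0.27 with no filter on low counts (adjusted p = 0.231), and -0.083 with library totals alone (adjusted p = 0.168). With library totals that leave out miR-122-5p itself it was -0.22 (adjusted p = 0.0558). The call as higher held in 2 of 7 alternatives, the TMM fits with the log2 library total as a covariate and with only these 2 ages. The median entry moved as well: it was 0.12 under TMM, -0.35 under DESeq2 size factors, -0.54 under library totals and -0.66 under totals without miR-122-5p. The split of called entries moved with it, with 137 higher and 144 lower under TMM, 88 and 178 under library totals, and 79 and 189 under totals without miR-122-5p.

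**Figure D2:**
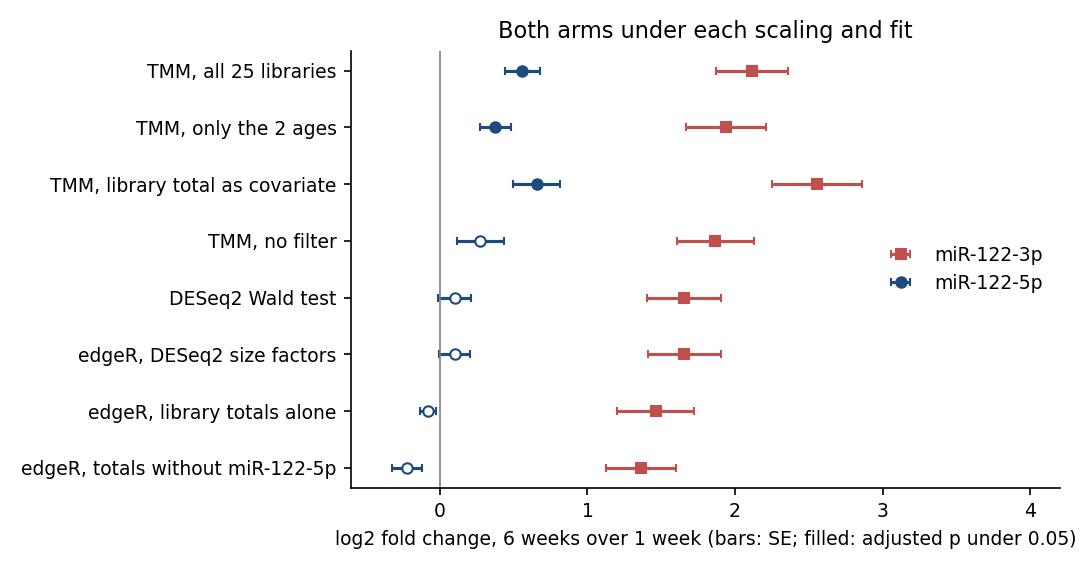
Log2 fold change at 6 weeks over 1 week for miR-122-3p and miR-122-5p in the main edgeR fit and under each other scaling, filter or model. Whiskers are standard errors, and filled symbols have an adjusted p under 0.05. The 3p values lie between 1.36 and 2.55, whereas those of 5p lie on both sides of 0.

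Between the adult ages neither arm passed edgeR's test in any planned comparison. At 6 months over 6 weeks miR-122-3p had a log2 fold change of -0.43 and miR-122-5p of 0.10, where 1.79% of entries were called. At 12 months over 6 months the values were -0.086 for 3p and -0.0099 for 5p, and at 14 months over 12 months 0.54 and 0.18. In both of these comparisons 0% of entries were called by edgeR and by DESeq2, with 28 and 8 entries at an unadjusted p under 0.05. At 14 months over 6 weeks they were 0.018 for 3p and 0.27 for 5p (adjusted p = 0.199 for 5p), where 3.84% of entries were called. In the comparison of 12 months with 6 weeks, added afterwards, miR-122-3p had a log2 fold change of -0.52 (edgeR adjusted p = 0.229), where 5.63% of entries were called. It passed as lower at 12 months with library totals that leave out miR-122-5p (-0.78, edgeR adjusted p = 0.0482) and with only the libraries of these 2 ages (-0.59, edgeR adjusted p = 0.0285). An F test over the 5 ages passed for miR-122-3p (adjusted p = 1.69e-07) and for miR-122-5p (adjusted p = 1.47e-05), as it did for 75.4% of entries. This test includes the 1-week libraries and is given for the TMM fit only. The 5p differences from 1 week changed sign under library totals and under totals without miR-122-5p.

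The ratio of the arms within a library needs no scaling between libraries. At 1 week there were 4377, 3964, 2777, 6331 and 2314 counts of miR-122-5p for each count of miR-122-3p in mice 1, 3, 4, 5 and 27. At 6 weeks the ratio was 1231, 1355, 1201, 1120 and 1208 in mice 6 to 10. The groups did not overlap, and the 6-week mice were close to each other. How many other hairpins separate these ages in this way was not counted. At 6 months the ratio was 2046, 1966, 1180, 1728 and 2244 in mice 11 to 15, and at 12 months 2343, 2353, 1371, 1837 and 1864 in mice 16 to 20. At 14 months it was 1653, 1251, 838, 2970 and 1596 in mice 21 to 25. Every older library except those of mice 16, 17 and 24 lay below the lowest 1-week ratio. The exact 95% binomial intervals of mouse 23 (798 to 879) and mouse 24 (2728 to 3240) were far apart, so these 14-month mice differed by more than counting error. The SD of the log2 ratio was 0.57, 0.099, 0.36, 0.32 and 0.67 from 1 week to 14 months.

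**Figure D3:**
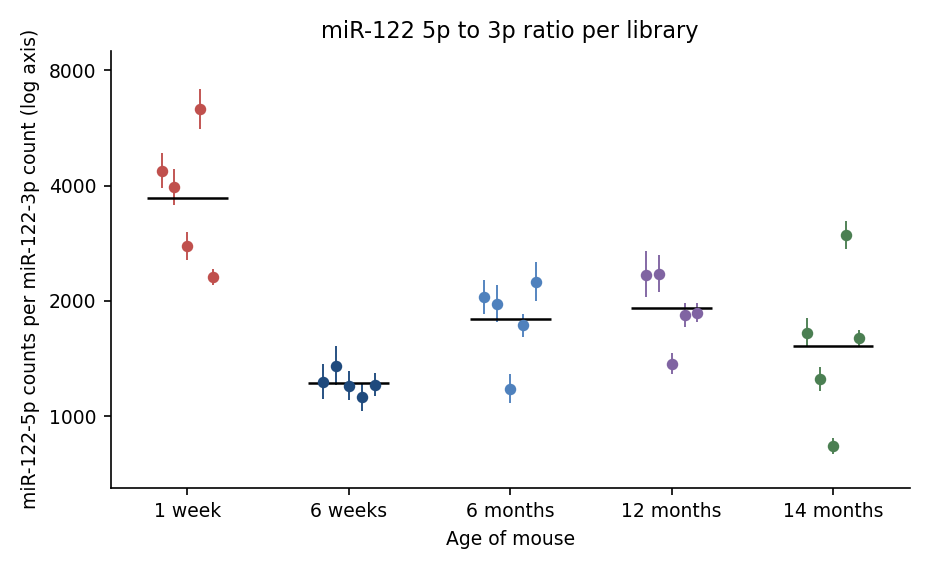
Counts of miR-122-5p per count of miR-122-3p in each library (log axis), by age, with the exact 95% binomial interval of each library and a horizontal line for the geometric mean of each age. The 6-week libraries lie between 1120 and 1355, all below the 1-week libraries (2314 to 6331), and the 14-month libraries spread from 838 to 2970.

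The geometric mean ratio was 3713, 1221, 1790, 1917 and 1524 from 1 week to 14 months. limma, fitted over the 79 hairpins whose arms both had enough counts, gave a log2 ratio that was 1.60 ± 0.26 (SE) lower at 6 weeks than at 1 week. The adjusted p was 1.24e-05, and the ratio was 3.04-fold lower (95% interval 2.11 to 4.39). In this comparison limma called 40.5% of hairpins, 21.5% with a higher and 19% with a lower ratio. The change was at least as large with the log2 library total as a covariate (log2 difference -1.92, adjusted p = 8.39e-05). Because the library totals of these ages did not overlap, that fit cannot tell depth and age apart. Leaving out any 1 library gave -1.78 to -1.41, and the call held each time. By size of change miR-122 ranked 26 of 79, by fall of the 5p to 3p ratio 11, and by p-value 5.

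No planned comparison among the adult ages passed for the ratio. It was 0.55 higher on the log2 scale at 6 months than at 6 weeks (limma adjusted p = 0.680), where 1.27% of hairpins were called. The difference was 0.099 at 12 months over 6 months and -0.33 at 14 months over 12 months, with 0% of hairpins called by limma in either and 2 and 0 at an unadjusted p under 0.05. At 14 months over 6 weeks it was 0.32, with a 95% interval from -0.21 to 0.85 (adjusted p = 0.555). Without mouse 24 it was 0.080 and without mouse 23 it was 0.54. limma also called 0% of hairpins there, with 13 at an unadjusted p under 0.05. In the comparison of 12 months with 6 weeks, added afterwards, the log2 ratio was 0.65 higher at 12 months, with a 95% interval from 0.12 to 1.18 (limma adjusted p = 0.171), where 2.53% of hairpins were called. It passed with only the libraries of these 2 ages (limma adjusted p = 0.00623). Ordered by ratio, 6 weeks was lowest, followed by 14 months, 6 months, 12 months and 1 week. Among neighbours in that order only 12 months and 1 week passed (log2 difference -0.95, adjusted p = 0.00389, limma, comparison added afterwards, with 39.2% of hairpins called). The libraries of these 2 ages overlapped, mice 16 and 17 (2343 and 2353) lying above mouse 27 (2314). The added comparisons of 6 and 14 months with 1 week passed too, at -1.05 (adjusted p = 0.00206) and -1.28 (adjusted p = 0.000223), with 29.1 and 36.7% of hairpins called. The F test over ages passed for miR-122 (adjusted p = 0.000146) and for 39.2% of hairpins.

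Among all 79 hairpins miR-122 had the highest 5p to 3p ratio at 1 week and 12 months. At 6 weeks, 6 months and 14 months it stood second to miR-21a, a miRNA linked to growth and fibrosis. The median log2 difference of the 79 ratios at 6 weeks over 1 week was 0.034. In that median, hairpins led by the 5p arm and by the 3p arm can offset each other. Taken as the more abundant over the less abundant arm, the median was -0.22, and miR-122 was at -1.60. The larger shifts included miR-574, a hairpin in an intron of Fam114a1, at -4.35 ± 0.50, and let-7d at 3.45 ± 0.51 (SE). Both rest on an arm that was scarce at 6 weeks. miR-574-5p averaged 6.6 counts there against 265.6 at 1 week, and let-7d-3p 19.4 against 600.6. All other named 5p entries together had 1.25 to 1.48 times the counts of all other 3p entries at 6 weeks and 1.04 to 1.66 times at 1 week, which overlap.

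Of the hepatocyte list, 6 hairpins could be tested for their arms, miR-122 included. In 5 of 6 the less abundant arm gained on the more abundant one at 6 weeks over 1 week, and limma called all 5. Over all 79 hairpins the minor arm gained in 46, of which 19 were called, and lost in 33, of which 13 were called. Where the minor arm averaged at least 50 counts over all 25 libraries, it gained in 15 hairpins and lost in 15. A minor arm could pass that filter through its 1-week counts alone, which favours minor arms that fell. An arm could also enter the 79 through a single age. For example, miR-483-3p averaged 302 counts at 1 week and at most 0.2 at each later age. Neither split is therefore an even background. miR-192 came closest to miR-122 in size: its ratio was 99 to 136 counts of 5p per count of 3p at 6 weeks, against 241 to 484 at 1 week. The groups did not overlap, a separation that was not counted over the other hairpins. By limma the log2 difference was -1.58 ± 0.20 (SE), with an adjusted p of 1.85e-07. miR-802 had 11.1 to 16.9 at 6 weeks against 16.0 to 41.8 at 1 week (log2 difference -1.08, adjusted p = 0.00453, limma). The ratio of miR-22, whose 3p arm is the abundant one, was 7.67 to 14.2 counts of 3p per count of 5p at 6 weeks against 11.5 to 199 at 1 week (adjusted p = 0.00506, limma). The groups overlapped for both of these hairpins. miR-148a had an adjusted p of 0.0309, but its minor arm held only 2 to 9 counts per library at 6 weeks and 5 to 10 at 1 week. The calls for miR-802, miR-22 and miR-148a were lost with the log2 library total as a covariate, whereas those for miR-122 and miR-192 held. As the totals of these ages did not overlap, that fit cannot tell depth and age apart. The calls for miR-802 and miR-22 were also lost with only the libraries of these 2 ages, and that for miR-148a without any of mice 6, 8, 9 or 27 (limma adjusted p up to 0.0848). The remaining hairpin, miR-378a, hosted by the metabolic coactivator gene Ppargc1b, did not pass (limma adjusted p = 0.153), but did without mouse 1 (limma adjusted p = 0.0243).

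**Figure D4:**
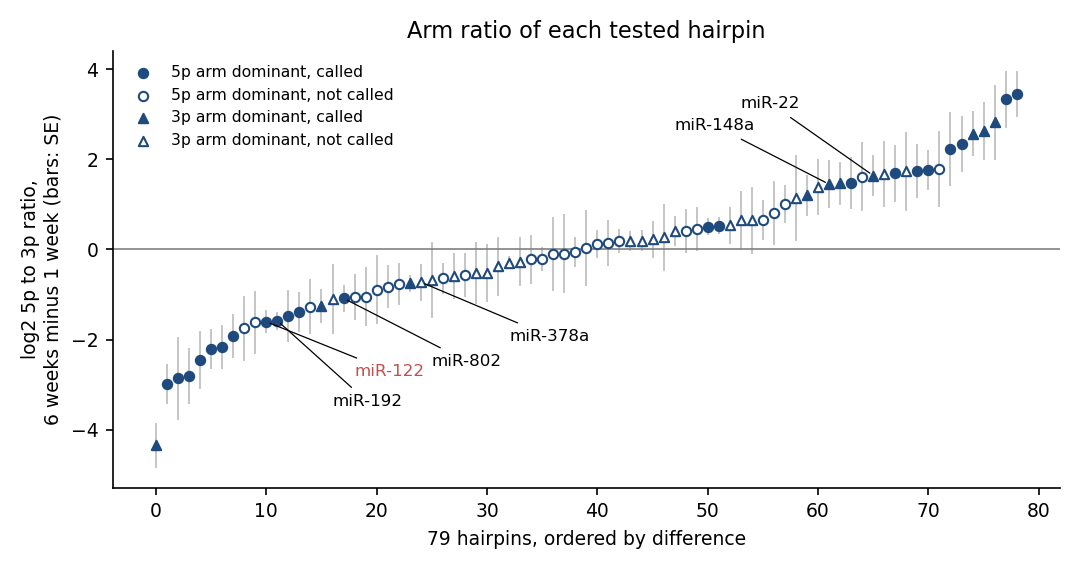
Log2 difference of the 5p to 3p ratio at 6 weeks over 1 week for the 79 tested hairpins, ordered by difference, with standard errors as lines and hairpins of the hepatocyte list named. Circles have more counts of the 5p arm and triangles of the 3p arm, and filled symbols were called. miR-122 (-1.60) and miR-192 (-1.58) lie on the side of a lower ratio, and the median of all hairpins is 0.034.

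The hepatocyte list has 16 entries, both miR-122 arms included. Of 14 tested members, edgeR called 12 higher and 0 lower at 6 weeks over 1 week, with a median log2 fold change of 1.40 against 0.12 over all entries. Over all tested entries 35% were called higher and 36.8% lower. With library totals that leave out miR-122-5p, 7 members were called higher, against 79 of 391 over all entries. miR-194-5p, encoded beside miR-192 at one of its loci, had a log2 fold change of 2.21, and miR-192-5p of 2.27. Without both miR-122 arms the list held 11.3 to 13.5% of counts at 6 weeks and 7.74 to 9.82% at 1 week. It held 12.1 to 14.3% at 6 months, 12.0 to 14.5% at 12 months and 11.2 to 12.7% at 14 months. This sum was larger in all 20 older libraries than in any 1-week library, but its members did not contribute alike. miR-192-5p held 4.14 ± 0.444% of counts at 6 weeks and 1.35 ± 0.598% at 1 week (SD, n = 5 each), which is most of the difference between these ages. miR-148a-3p, the largest remaining member, held 5.36 to 7.93% at 6 weeks and 5.01 to 7.39% at 1 week, and so overlapped, as miR-122-5p did. No member was called in the later consecutive comparisons, and 1, miR-194-5p, was called higher at 14 months over 6 weeks. The number of members called there was 0 in 5 of 7 alternatives, and 1 in 13 of 25 fits that each left out 1 library.

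The profiles most like each arm were found over the 25 libraries as the smallest root mean square difference of centred log2 CPM, among 140 named miRNAs of at least 50 CPM on average. All profiles share the libraries and their scaling. Nearest to miR-122-5p were miR-30e-3p at 0.214, let-7e-5p at 0.223, miR-30a-3p at 0.224 and miR-148a-3p at 0.227. Nearest to miR-122-3p were miR-30a-5p at 0.399, miR-872-5p at 0.401, miR-30d-5p at 0.419 and miR-30e-5p at 0.430. The arms of miR-122 lay 0.669 apart, so that miR-122-3p ranked 87 in nearness to miR-122-5p, and miR-122-5p ranked 53 in nearness to miR-122-3p. Members of the miR-30 family stood next to both arms, and their sequences show opposite strands of the same hairpins.
miR-30a-3p: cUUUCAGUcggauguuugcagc
miR-30e-3p: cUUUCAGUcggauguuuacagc
miR-30a-5p: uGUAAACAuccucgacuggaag
miR-30e-5p: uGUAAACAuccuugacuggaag
The 3p strands, near miR-122-5p, share the seed UUUCAGU, and the 5p strands, near miR-122-3p, share the seed GUAAACA. At 6 weeks over 1 week edgeR gave log2 fold changes of 0.79 for miR-30a-3p and 0.72 for miR-30e-3p, against 0.56 for miR-122-5p. It gave 1.37 for miR-30a-5p and 1.28 for miR-30e-5p, against 2.11 for miR-122-3p. The miR-30 5p calls held under all 7 alternatives, whereas the miR-30a-3p call held under 2 of them and the miR-30e-3p call under 1.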

How the data were processed

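Small RNA libraries (QIAseq miRNA kit, Illumina NovaSeq, paired-end, per the labels) of 25 mice were analysed from the table of raw counts that the authors deposited, with 1493 entries of which 1095 carry a miRNA name. The submitters' processing notes name Bowtie, edgeR and the build mm10. The annotation, mismatches allowed, strand setting and whether reads or unique molecular identifiers were counted are not given in the sources used here.

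Counts of all 25 libraries were fitted at once with edgeR 4.0.16 (R 4.3.3; filterByExpr, TMM, robust quasi-likelihood test), which kept 391 entries. Arm ratios, as log2 of (5p count + 0.5) over (3p count + 0.5), were fitted with limma 3.58.1 (trend, robust) over 79 of 326 hairpins with both arms in the table. The threshold was a Benjamini-Hochberg adjusted p of 0.05 over all entries or hairpins of a comparison. Two-sided exact permutation tests (scipy 1.17.1) were run on the shares. Their p-values were adjusted over the 5 planned comparisons of each measure and, separately, over the 5 added ones. An adjustment over all pairs of ages together was not made. There were 5 planned comparisons, and the other 5 pairs of ages were added after the data were seen. DESeq2 1.42.0 was an alternative. Scripts were tested on simulated data. The biological coefficient of variation was 37.6%, and none of 50 same-age pairs of libraries was identical (smallest chi-squared per degree of freedom 12.1).

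The 2 miR-122 arms and the marker lists were chosen with earlier results of these data known. Other miRNAs were named by rule: the 5 most abundant, the 4 profiles nearest to each arm, up to 6 tested hepatocyte members by level, the 3 largest rises and falls of an arm ratio, and all hepatocyte hairpins; those that the text does not turn on are left out. RefSeq sequences matched 31 of 36 names looked for.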

Additional observations from a re-analysis of the deposited data

Results flagged for a closer look

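Of 30 sets of 5 same-age values checked for a sample far from the others (totals, shares, levels and ratios), 2 stood out, both of library totals, and chance marks about 1 in 20 such sets. The library of mouse 27 at 1 week had a total of 6888928 counts, against 2095925 to 2621883 in the other 1-week libraries. Its miR-122-5p share and its 5p to 3p ratio were the lowest at that age, and its miR-122-3p share the highest. Without it the ratio was -1.78 on the log2 scale at 6 weeks over 1 week (adjusted p = 2.68e-06, limma) and miR-122-3p 2.27 (adjusted p = 1.51e-08, edgeR). The library of mouse 14 at 6 months had a total of 2485335 counts. Without it, neither arm and no ratio changed its call in the planned comparisons of 6 months with 6 weeks or of 12 months with 6 months.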

How the results depend on the processing

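No paired analysis was possible because no mouse number occurs at more than 1 age. The rise of miR-122-3p and the lower 5p to 3p ratio at 6 weeks over 1 week held under all 7 alternatives and without any 1 library (3p 2.05 to 2.27, ratio -1.78 to -1.41). The miR-122-5p level in that comparison kept its call as higher in 2 of 7 alternatives, with log2 fold changes up to 0.66. These were the TMM fits with the library total as a covariate and with only the 2 ages. With the DESeq2 test and with its size factors in edgeR the level was 0.099, and with no filter 0.27. It was -0.083 with library totals and -0.22 with totals without miR-122-5p. None of these passed the threshold. The last 2 scalings also turned 5p at 6 months over 6 weeks (-0.040 and -0.10), 12 months over 6 weeks (-0.061 and -0.15), 14 months over 1 week (-0.082 and -0.22), 6 months over 1 week (-0.12 and -0.32) and 12 months over 1 week (-0.14 and -0.37), the last 2 past the threshold as lower, with adjusted p from 0.00221 to 0.0421 (edgeR). In the main fit miR-122-5p was called higher at 6, 12 and 14 months than at 1 week. The log2 fold changes were 0.66, 0.65 and 0.83 (edgeR adjusted p = 2.48e-05, 2.85e-05 and 7.97e-07). Totals without miR-122-5p turned let-7e-5p (-0.069), miR-148a-3p (-0.10) and miR-30e-3p (-0.064) at 6 weeks over 1 week, none past the threshold. Uncalled differences near 0 changed sign. At 14 months over 6 weeks miR-122-3p was -0.0057 with DESeq2, -0.0058 with its size factors, -0.21 with totals, -0.22 with totals without miR-122-5p, -0.29 with the covariate, -0.070 with 2 ages only, and -0.13 to 0.20 without 1 library. At 12 months over 6 months miR-122-3p was 0.012 with no filter and -0.17 to 0.079 without 1 library. There miR-122-5p was 0.026 with DESeq2 or its size factors, 0.11 with no filter and -0.064 to 0.17 without 1 library, the ratio was -0.052 to 0.22 and the 3p share difference -0.00530 to 0.000822. The 5p share at 14 months over 6 weeks was -0.023 points over named miRNAs only, and -1.09 to 0.761 without 1 library. The 3p share at 6 months over 6 weeks was -0.0401 points without miR-122-5p in the denominator, past the threshold, and -0.0190 to -0.0132 without 1 library, past it without mouse 13 (-0.0190, adjusted p = 0.0397, exact permutation test). That at 6 weeks over 1 week was 0.0288 to 0.0322 without 1 library, with adjusted p from 0.0595 to 0.0794 in the smaller exact permutation test. Leaving out a library raises the smallest p this test can give, and the shares of the 2 ages still did not overlap. Hepatocyte members called higher at 6 weeks over 1 week were 7 with totals without miR-122-5p, and at 14 months over 6 weeks 0 in 5 alternatives and 0 to 1 without 1 library. The cause of these changes was not tested.

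Of 79 arm ratios, 32 were called at 6 weeks over 1 week, 11 with the covariate and 18 with 2 ages only; 83 were called with no filter, which tests more hairpins. Entries called higher at 14 months over 6 weeks were 13, with 5 to 20 under alternatives and 7 to 17 without 1 library. Those called lower were 2, with 2 to 8 and 1 to 6. At 6 months over 6 weeks 4 were called higher, with 1 to 7 under alternatives and 0 to 7 without 1 library, and 3 lower, with 1 to 6 without 1 library. Without 1 library the ratio difference was 0.080 to 0.54 at 14 months over 6 weeks and -0.57 to -0.11 at 14 months over 12 months, without a call. The 203 to 1671 counts of miR-122-3p per library limit the precision of its share and of the ratio.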
